A study of Mus musculus with 8 samples.

Results

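Of the 45987 regions carrying H3K27Ac in ventricles of mice at postnatal day 7, 103 had their centre closest to a transcription start of *Fhod3*, *Fhod1*, *Daam1*, *Daam2*, *Lmod2*, *Tmod1* or *Ablim1*, which encode formins and thin filament assembly proteins. These 103 regions (peaks) are described here. The 7 genes were proposed with the *Arid1a cKO* minus control differences of these peaks already known, so the differences below were selected on and describe the peaks without testing them. Starts were those of curated RefSeq transcripts on mm10, and 45980 of the 45987 peaks lay on a chromosome with such a start. *Fhod3* had 11 peaks, *Fhod1* 2, *Daam1* 31, *Daam2* 5, *Lmod2* 9, *Tmod1* 9 and *Ablim1* 36.

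The series compared chromatin of 2 Arid1a f/f Control hearts, which carry floxed *Arid1a* alleles without Cre, with 2 aMHC-Cre;Arid1a f/f cKO hearts (*Arid1a cKO*), which carry the same alleles and a Cre transgene driven by the αMHC promoter. ARID1A belongs to the SWI/SNF complex, which moves nucleosomes. The αMHC promoter is active in cardiomyocytes, whereas whole ventricles also hold fibroblasts, endothelial cells and other cells in which the floxed alleles are not expected to recombine. Both groups, from lines kept on C57BL/6J, were taken at postnatal day 7, and each heart gave 1 library precipitated with an antibody against H3K27Ac and 1 input library, for 8 libraries in all. The values are the authors' means over the 2 H3K27Ac libraries of a group, given as the log2 of normalized reads per peak. There are 0 columns of per-sample values, so no error between hearts, no test and no depth per library can be given, and the genotype is as labelled, since the mark does not report the deletion. A difference below is the mean log2 level in *Arid1a cKO* minus that in control, and a peak is called lower or higher when that difference is at least 1.5-fold (0.58 on the log2 scale).

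Formins nucleate and elongate unbranched actin filaments, and H3K27Ac is an acetyl mark on histone H3 found at active promoters and enhancers. FHOD3 is the formin most closely tied to the heart, where it is needed to build and maintain the actin thin filaments of the sarcomere, and FHOD1 is its close relative. DAAM1 and DAAM2 are formins that act downstream of Wnt signals. At the pointed end of the thin filament, LMOD2 promotes elongation whereas TMOD1 caps the filament, and ABLIM1 is an actin-binding LIM domain protein.

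The sequences that follow come from peaks described below, except for *Fhod3*, which is described by position and level only. They are read from GRCm38.p6 (mm10), plus strand. The first set are 90-base windows around matches to the 10-letter MEF2 core in *Tmod1* and *Lmod2* peaks, with the matched letters in capitals. MEF2 factors bind such A/T-rich cores in muscle genes. All of these windows lie in peaks with less H3K27Ac in *Arid1a cKO*. Every peak of these genes with this core had a negative difference, so the shared direction was fixed by the choice of genes. The *Tmod1* windows at +0.228, +1.61 and +37.2 kb lie in peaks (-0.47 and -0.41) that did not pass the 1.5-fold limit. Cores in *Ablim1* peaks, not shown, lay at differences of 0.16, 0.12, -0.04, -0.28 and -0.41.

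Tmod1 +0.228 kb, chr4:46039406-46039495, intron: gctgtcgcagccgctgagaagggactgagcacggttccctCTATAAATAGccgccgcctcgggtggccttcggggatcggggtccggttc
Tmod1 +1.61 kb, chr4:46040791-46040880, intron: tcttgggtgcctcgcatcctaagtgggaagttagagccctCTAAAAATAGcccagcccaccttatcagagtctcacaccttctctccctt
Tmod1 +29.1 kb, chr4:46068236-46068325, intron: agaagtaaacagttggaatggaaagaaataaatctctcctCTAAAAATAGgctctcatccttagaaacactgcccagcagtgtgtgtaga
Tmod1 +37.2 kb, chr4:46076394-46076483, intron: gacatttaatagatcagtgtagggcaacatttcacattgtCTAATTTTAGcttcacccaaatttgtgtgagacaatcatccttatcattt
Tmod1 +49.0 kb, chr4:46088163-46088252, intron: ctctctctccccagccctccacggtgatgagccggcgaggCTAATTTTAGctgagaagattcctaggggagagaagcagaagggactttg
Lmod2 -0.921 kb, chr6:24596806-24596895, upstream of the gene: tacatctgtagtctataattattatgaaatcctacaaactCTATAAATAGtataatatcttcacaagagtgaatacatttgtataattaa
Lmod2 -27.9 kb, chr6:24569862-24569951, intron of Asb15: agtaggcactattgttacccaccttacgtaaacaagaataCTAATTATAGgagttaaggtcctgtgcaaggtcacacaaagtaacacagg

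The next set contrasts *Daam1* peaks with different values, both inside the 1.5-fold limit. The first window lies in a peak whose level was 0.44 lower on the log2 scale in *Arid1a cKO*, and the second in a peak whose level was 0.10 higher. Both hold the same 10 matched letters of the MEF2 core, in capitals. The first window also holds a match to the SRF box, CCTATTTTGG, left in lower case.

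Daam1 -25.5 kb from the inner start, chr12:71864042-71864131, intron: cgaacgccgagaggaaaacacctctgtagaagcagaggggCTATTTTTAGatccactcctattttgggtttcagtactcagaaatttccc
Daam1 +81.4 kb from the inner start, chr12:71970892-71970981, intron: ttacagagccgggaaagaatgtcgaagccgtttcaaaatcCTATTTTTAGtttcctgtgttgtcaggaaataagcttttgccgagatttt

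The 2 curated starts of *Daam1* also differed, and the 250 bases before each are shown in transcript direction. Neither window holds a match to any of the 5 motifs searched, so no letter is in capitals. The outer window has 58.0% G and C and 9 CpG dinucleotides, and the inner window 52.8% and 4.

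Daam1 outer start, chr12:71830818-71831067: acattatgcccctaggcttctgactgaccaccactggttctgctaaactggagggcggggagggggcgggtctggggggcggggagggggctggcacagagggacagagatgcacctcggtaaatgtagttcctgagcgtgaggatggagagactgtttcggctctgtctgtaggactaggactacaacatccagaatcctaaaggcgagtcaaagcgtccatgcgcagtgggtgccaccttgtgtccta
Daam1 inner start, chr12:71889293-71889542: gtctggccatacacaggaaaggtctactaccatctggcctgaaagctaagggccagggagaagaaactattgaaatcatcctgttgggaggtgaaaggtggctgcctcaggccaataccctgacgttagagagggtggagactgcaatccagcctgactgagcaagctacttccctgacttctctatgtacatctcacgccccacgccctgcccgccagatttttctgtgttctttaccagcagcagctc

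The last set gives the central 300 bases of the member peaks with the lowest and the highest difference, an *Lmod2* and a *Daam1* peak. Capitals mark the TEAD core CATTCC, read here as its reverse complement, which was the only match in either window. Each of these windows, from peaks at opposite ends of the range, holds it once.

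Lmod2 peak, -4.45, chr6:24573238-24573537, intergenic: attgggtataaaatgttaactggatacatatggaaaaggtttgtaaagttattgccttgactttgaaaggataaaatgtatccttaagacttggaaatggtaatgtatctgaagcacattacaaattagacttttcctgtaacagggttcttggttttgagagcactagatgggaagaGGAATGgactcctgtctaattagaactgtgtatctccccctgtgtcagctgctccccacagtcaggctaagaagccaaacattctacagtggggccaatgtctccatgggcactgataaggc
Daam1 peak, 2.77, chr12:71820303-71820602, intergenic: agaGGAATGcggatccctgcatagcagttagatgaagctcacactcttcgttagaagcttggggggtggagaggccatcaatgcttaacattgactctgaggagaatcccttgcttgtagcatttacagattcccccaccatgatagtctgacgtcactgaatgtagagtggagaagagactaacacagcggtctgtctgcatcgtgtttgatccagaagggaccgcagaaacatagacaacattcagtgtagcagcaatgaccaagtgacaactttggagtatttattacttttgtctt

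Among the 103 peaks, 25 were lower in *Arid1a cKO* and 9 were higher, and the median difference was -0.10. Among all 45980 annotated peaks, 17.3% were lower and 12.0% were higher, with a median of 0.01. The share of lower peaks among the 103 was 24.3%, and that of higher peaks was 8.74%. At a limit of 2-fold, 6 of the 103 were lower and 2 were higher, against 10.6% and 4.57% of all peaks. The share of lower peaks among the 103 was thus above that of all peaks at 1.5-fold and below it at 2-fold. Since the tissue is whole ventricle, fewer cells of a type and less H3K27Ac per cell cannot be told apart here.

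The 25 lower peaks were unevenly spread over the genes. *Fhod3* held 8 of its 11 among them, *Lmod2* 5 of 9 and *Tmod1* 4 of 9, whereas *Daam1* held 5 of 31, *Ablim1* 3 of 36, and *Fhod1* and *Daam2* none of 2 and 5. The medians ran from -0.82 for *Fhod3* through -0.60 for *Lmod2*, -0.47 for *Tmod1*, -0.02 for *Daam1*, -0.015 for *Ablim1* and 0.09 for *Fhod1* to 0.38 for *Daam2*. Without *Fhod3*, 17 of 92 peaks were lower (18.5%) and 8 were higher (8.70%), so the share of lower peaks was near that of all peaks. None of these medians can be separated from another by a test, because no error between hearts is known. The peaks nearest to the limit were, among those called, the *Lmod2* start peak at -0.60 and an *Ablim1* peak at 0.60, and, among those not called, an *Ablim1* peak at -0.57 and a *Daam1* peak at 0.57.

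**Figure D1:**
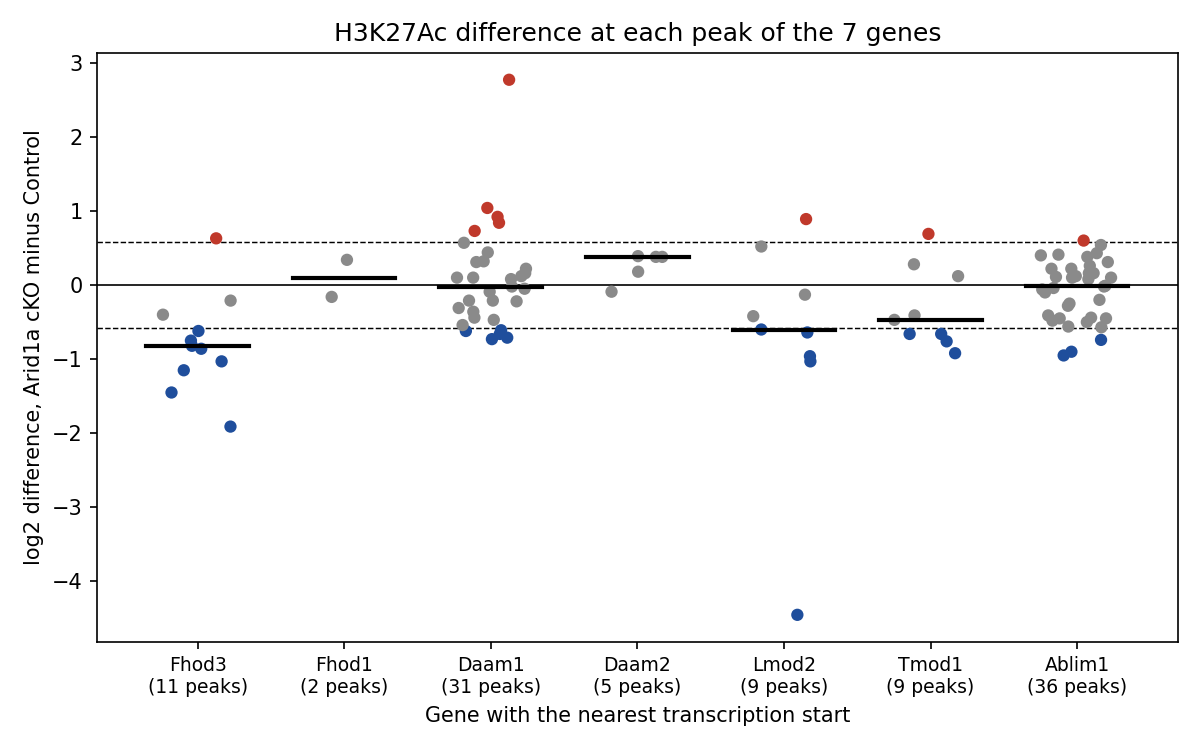
Log2 difference of mean normalized H3K27Ac reads, Arid1a cKO minus Control, for each of the 103 peaks (points), by the gene with the nearest transcription start. Black bars are medians, dashed lines the 1.5-fold limits, blue points the 25 lower and red points the 9 higher peaks. Points are spread sideways for legibility only, and the *Fhod3* points sit mostly below the lower limit with a median of -0.82.

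*Fhod3* had its lowest differences along its first introns. The gene spans chr18:24708623-25133507 on the plus strand, 425 kb in all, and its 11 peaks lay between the start and 223 kb into the gene, all centred in introns. At the start, a peak of 10426 bp (chr18:24707953-24718378) had a mean of 1585 normalized reads in control and 1031 in *Arid1a cKO*, a difference of -0.62. Next to it, a small peak at 10.7 kb had 11.0 and 9.51 reads, a difference of -0.21. The start peak was the densest of the gene in both groups, at 152 reads per kb in control and 98.9 in *Arid1a cKO*.

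The 7 peaks centred between 42.3 and 103 kb from the start were all lower, with differences from -0.75 to -1.91 and a median of -1.03. This stretch is the run of neighbouring lower peaks, so their shared direction follows from how it was bounded. Their summed reads were 1652 in control and 853 in *Arid1a cKO*, or 51.6% of control. In intron 1, the peak at 42.3 kb had 158 reads in control and 57.7 in *Arid1a cKO* (-1.45). The lowest difference of the gene, -1.91, was at 48.8 kb in intron 2 (chr18:24756503-24758256), where the means were 44.6 and 11.9 reads. Only 4.06% of all peaks had a difference below that one.

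The other 5 of the 7 lay in intron 3. The peak at 71.0 kb had 194 reads in control and 87.4 in *Arid1a cKO* (-1.15), and that at 77.9 kb had 338 and 191 (-0.82). Close together, the peaks at 92.1 and 94.2 kb had 49.5 and 47.8 reads in control and 24.3 and 28.4 in *Arid1a cKO* (-1.03 and -0.75). A 16022-bp peak at 103 kb (chr18:24804036-24820057) had 820 and 452 reads (-0.86). The lower peaks of this stretch ranged from 44.6 to 820 control reads.

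Beyond this stretch the difference was smaller. A peak of 47588 bp in intron 3 (chr18:24832627-24880214) held more reads than any other of the 103, with 4330 in control and 3281 in *Arid1a cKO*, a difference of -0.40 that stays inside the 1.5-fold limit. It was the widest of the 103, and per length it had 91.0 and 69.0 reads per kb, below the start peak. The farthest *Fhod3* peak, at 223 kb in intron 5, was the only higher one, with 9.19 reads in control and 14.2 in *Arid1a cKO* (0.63). With predicted transcripts included, that peak goes to the neighbouring gene *Tpgs2*. Over all 11 peaks the summed reads were 7586 in control and 5189 in *Arid1a cKO*, or 68.4% of control, a log2 ratio of -0.55.

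**Figure D2:**
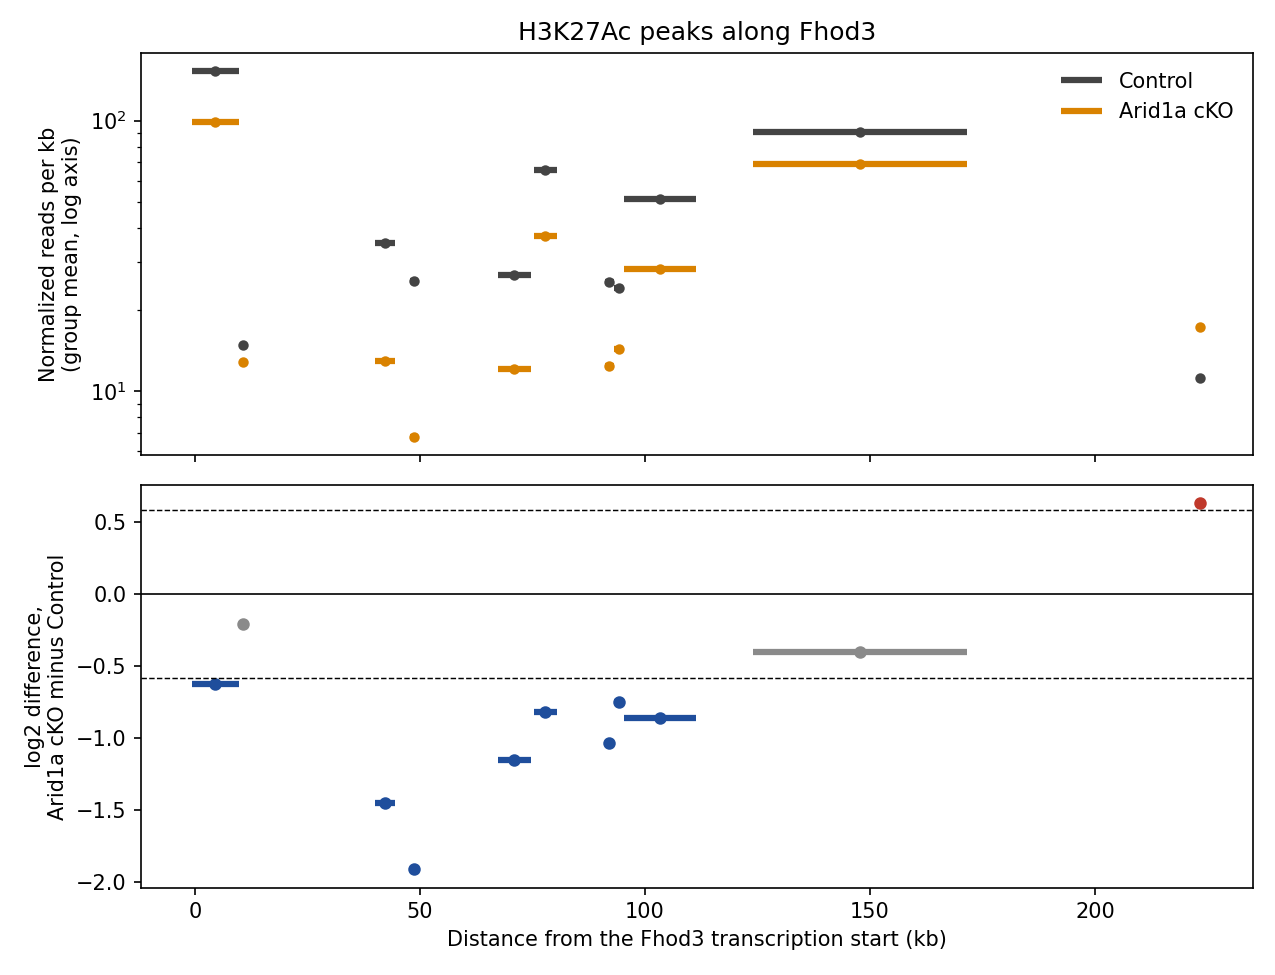
Mean normalized H3K27Ac reads per kb of peak (top, log axis) in Control (grey) and Arid1a cKO (orange), and the log2 difference (bottom), for the 11 Fhod3 peaks by distance from the transcription start in kb. Horizontal bars show the width of a peak, dots its centre and dashed lines the 1.5-fold limits. The 7 peaks between 42.3 and 103 kb lie from -0.75 to -1.91, whereas the widest peak lies at -0.40.

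A further 6 peaks inside the *Fhod3* gene body lay closer to the start of the neighbouring gene *Tpgs2* and are not counted among the 103. Of these, the nearest (chr18:24939446-24941505) had 49.9 reads in control and 19.0 in *Arid1a cKO* (-1.39), another (chr18:25038391-25040047) had 35.3 and 22.3 (-0.66), and the others had differences of -0.27, 0.81, -0.26 and 0.68. Counting by gene body, 10 of 17 *Fhod3* peaks were lower and 3 were higher, with a median of -0.66. Upstream of the gene, the 3 closest peaks, nearest to *Rprd1a*, *Slc39a6* and *Mocos*, had differences of -0.96, 0.02 and -0.37. The last of these (chr18:24653535-24654375) was the closest to *Fhod3* and the first the farthest. Among all 1729 peaks of chromosome 18, 17.1% were lower, near the share in the whole genome.

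Across all peaks, those with fewer reads passed the limit more often. In the quartile of all peaks with the lowest concentration, 24.9% were lower and 24.7% higher, against 6.99% and 1.26% in the highest quartile. *Fhod3* had 5 peaks in the highest quartile, of which 4 were lower, and the 7 genes together had 28, of which 8 were lower and 0 were higher. Above the median concentration, 12 of 50 member peaks were lower and 0 higher, against 11.1% and 3.84% of all such peaks. Of the 9 higher member peaks, 4 were in the lowest quartile and 5 in the next.

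**Figure D3:**
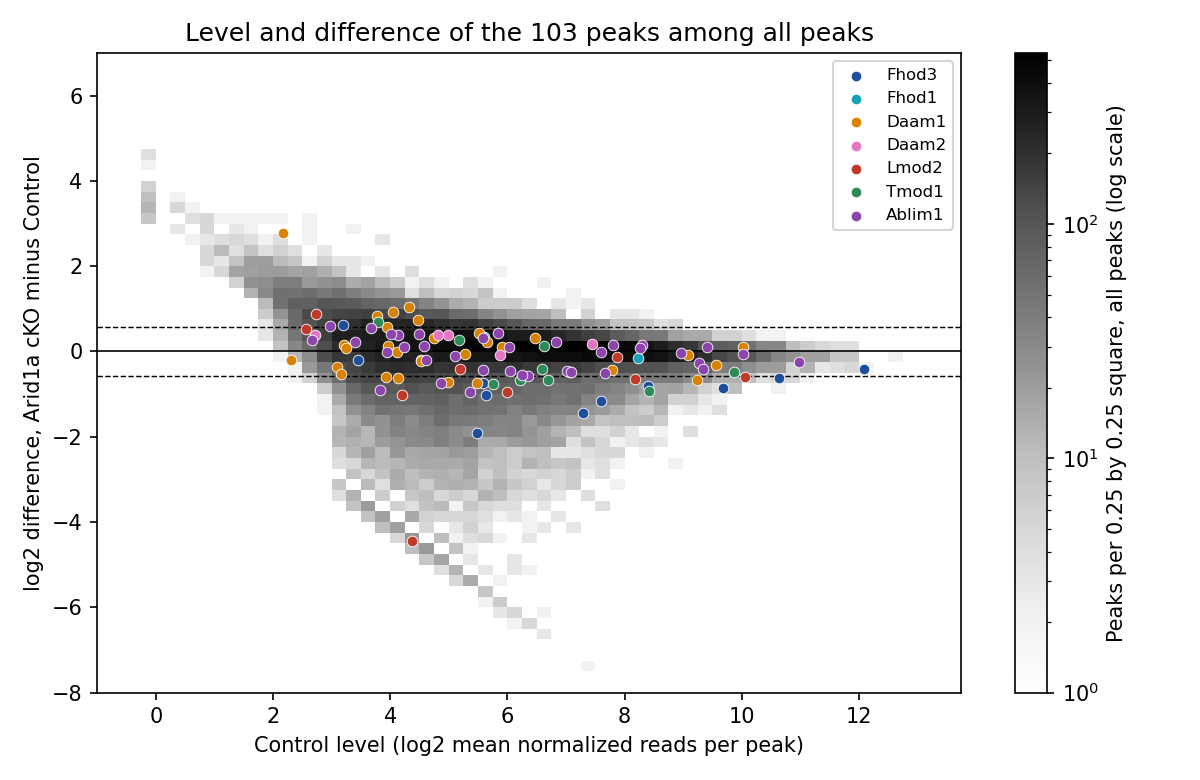
Log2 difference, Arid1a cKO minus Control, against the log2 mean level in Control for all peaks (grey squares, darker for more peaks, log scale) and for the 103 peaks (points coloured by gene). Dashed lines mark 1.5-fold, and the spread of all peaks narrows as the level rises. Of the 11 *Fhod3* points, 10 lie below 0, including that at the highest level, and the lowest *Lmod2* point lies on the diagonal formed by peaks at the lowest Arid1a cKO level.

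*Lmod2*, the leiomodin that lengthens cardiac thin filaments, showed lower levels at its start and downstream of it. The gene is short (chr6:24597771-24605414, plus strand, 7.64 kb), and a single peak of 7952 bp (chr6:24595994-24603945) covered most of it. That peak had 1060 reads in control and 699 in *Arid1a cKO* (-0.60), or 133 and 88.0 reads per kb. The *Lmod2* window with a MEF2 core shown above, 0.921 kb before the start, lies in this peak. Downstream, the peaks at 11.3, 14.4 and 17.6 kb had differences of -0.42, -0.96 and -1.03. The means were 63.6 and 32.7 reads at 14.4 kb and 18.4 and 9.0 reads at 17.6 kb, and the last of these peaks is centred in an exon of *Wasl*.

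Upstream of *Lmod2* the peaks did not share a direction. At 27.2 kb before the start, in an intron of *Asb15* (chr6:24568669-24572411), the means were 290 reads in control and 186 in *Arid1a cKO* (-0.64). The adjoining peak of 1065 bp, 24.4 kb before the start (chr6:24572855-24573919), had 20.7 reads in control and 0.946 in *Arid1a cKO*, the lowest value in the table, which 279 peaks share in *Arid1a cKO* and 46 in control. Taking 3 reads as the floor for the group, it was at least 6.89-fold lower. Nearer the start, the peaks at 11.1, 7.43 and 5.75 kb had differences of -0.13, 0.52 and 0.89, and the last, with 6.68 and 12.4 reads, was the only higher one.

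The call for *Lmod2* depends on the assignment of peaks. With predicted transcripts included, the -0.64 and -4.45 peaks go to *Asb15* and the median becomes -0.42. Among the 4 peaks that overlap the gene body with 10 kb upstream, the median was 0.195, because the lower peaks other than the start peak lie outside that span.

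*Tmod1*, which caps the pointed ends of thin filaments, split at its start. The gene spans chr4:46039222-46116032 on the plus strand, 76.8 kb. The 3 peaks upstream of the start, all in introns of *Tdrd7*, had differences of 0.12, 0.69 and 0.28, and the 6 peaks at or after the start had differences from -0.41 to -0.92 with a median of -0.66. Summed over these 6 peaks the level was 1597 reads in control and 1067 in *Arid1a cKO*, or 66.8% of control. The upstream peaks summed to 148 and 173 reads, so the direction turned at the start of the gene.

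The *Tmod1* start peak (chr4:46038283-46044878) had 929 reads in control and 671 in *Arid1a cKO*, a difference of -0.47 that did not pass the limit, and it holds the first 2 MEF2 windows shown. The lowest difference, -0.92, was at 26.3 kb in intron 2 (chr4:46062128-46068959), with 340 and 180 reads. This peak holds the window at 29.1 kb. The peaks at 15.7 and 20.5 kb in intron 1 had 74.0 and 53.8 reads in control and 46.9 and 31.8 in *Arid1a cKO* (-0.66 and -0.76). That at 47.0 kb in intron 4 had 103 and 65.3 reads (-0.66), and that at 35.7 kb had 96.3 and 72.5 (-0.41). The only higher peak, at 10.8 kb upstream, had 13.8 and 22.3 reads (0.69). With predicted transcripts included, 4 of the downstream peaks go to the predicted gene *Gm52729*, and the upstream peak at 0.12 goes to *Tdrd7*. The *Tmod1* median over the remaining 4 peaks is then -0.095.

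*Daam1*, a formin of the Wnt pathway, showed opposite directions in different stretches. The gene spans chr12:71831068-71992376 on the plus strand and has an outer start at its 5′ end and an inner start at chr12:71889543. The 9 peaks upstream of the outer start had a median of 0.32, with 0 lower and 3 higher. Between the starts, 4 of 11 peaks were lower, 0 were higher, and the median was -0.47. Downstream of the inner start, 1 of 11 was lower, 2 were higher, and the median was 0.10. Summed reads in *Arid1a cKO* were 141% of control in the first stretch, 77.6% in the second and 98.4% in the third.

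The peaks over the *Daam1* starts, both centred between these starts, had negative differences of unlike size. Over the outer start, a peak of 6073 bp (chr12:71829904-71835976) had 541 reads in control and 508 in *Arid1a cKO* (-0.09). Over the inner start, a peak of 8172 bp (chr12:71881607-71889778) had 605 and 383 reads (-0.66). Per length the levels were 89.1 and 83.7 reads per kb at the outer start and 74.0 and 46.8 at the inner start, so the denser of these peaks was the one with the smaller difference.

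The other lower *Daam1* peaks were weak. The peak 18.7 kb after the outer start had 31.8 reads in control and 19.4 in *Arid1a cKO* (-0.71). Before the inner start, that at 21.6 kb had 17.5 and 11.4 (-0.62) and that at 11.0 kb had 44.9 and 27.1 (-0.73). After the inner start, that at 54.4 kb had 15.2 and 9.99 (-0.61). The peak 25.7 kb before the inner start, which holds the first *Daam1* window shown, had 220 and 162 reads (-0.44).

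The highest difference of the 103, 2.77, was at a peak 10.6 kb upstream of the outer *Daam1* start (chr12:71819576-71821329), with 4.53 reads in control and 30.9 in *Arid1a cKO*. A share of 99.8% of all peaks had a lower difference. The adjoining peak at 8.74 kb had 22.3 and 37.0 reads (0.73), and that at 62.2 kb upstream had 20.1 and 41.4 (1.04). In the gene body, the peaks 8.38 and 72.6 kb after the inner start had 13.7 and 16.6 reads in control and 24.6 and 31.3 in *Arid1a cKO* (0.84 and 0.92). All 5 higher *Daam1* peaks thus had few reads in control, from 4.53 to 22.3. The strongest *Daam1* peak (chr12:71968066-71986336, 18271 bp), which holds the second *Daam1* window shown, had 1046 and 1121 reads (0.10).

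**Figure D4:**
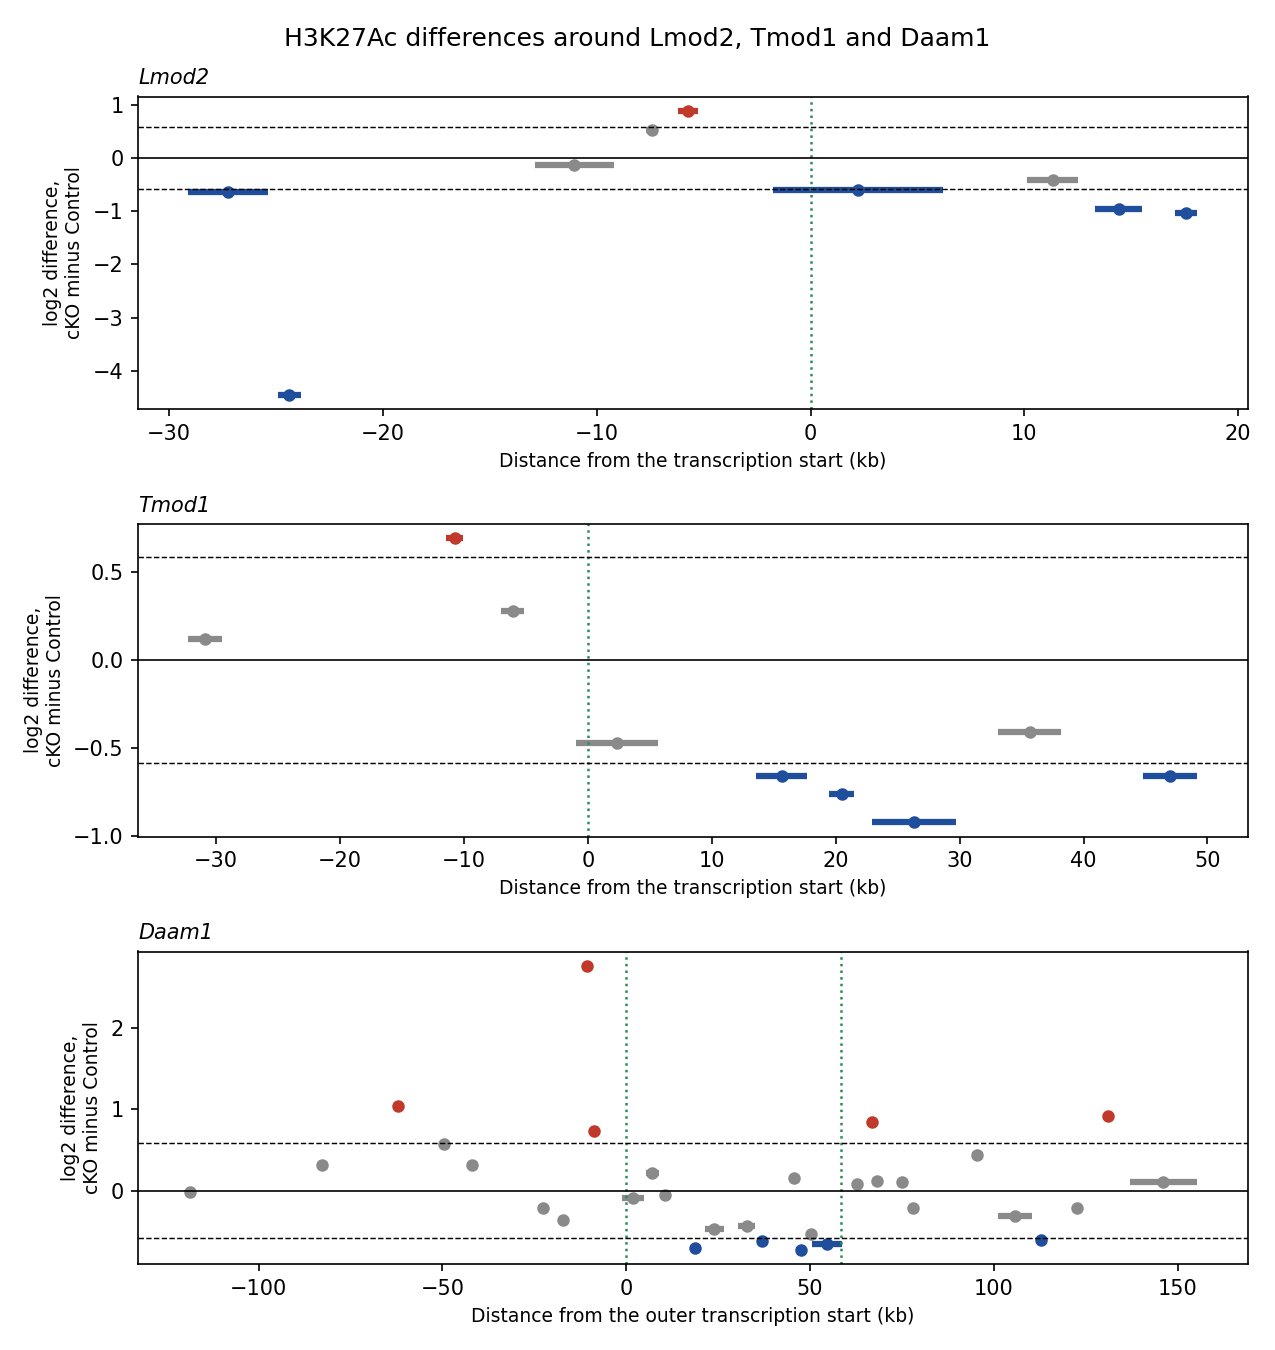
Log2 difference of H3K27Ac, Arid1a cKO minus Control, for the peaks of Lmod2 (top), Tmod1 (middle) and Daam1 (bottom) by distance in kb from the transcription start, for Daam1 from the outer start. Bars show peak width, dots peak centres, dotted green lines transcription starts and dashed lines the 1.5-fold limits. The Tmod1 peaks lie above 0 before the start and below 0 from the start on, and the Daam1 peaks between its starts have a median of -0.47.

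*Fhod1*, *Daam2* and *Ablim1* had few peaks past the limit. The *Fhod1* start peak (chr8:105344679-105349424), which also covers the start of *Slc9a5*, had 300.2 reads in control and 269 in *Arid1a cKO* (-0.16), and the peak in intron 1 had 48.5 and 61.4 (0.34). All 5 *Daam2* peaks lay in intron 1 by their centres, with differences of -0.09 at the start (chr17:49562216-49564725, 58.5 and 54.9 reads) and 0.38, 0.18, 0.39 and 0.38 farther in. The strongest *Daam2* peak (chr17:49514446-49521660) had 175 and 198 reads (0.18). Per length, the start peaks had 63.3 reads per kb in control for *Fhod1* and 23.3 for *Daam2*, against 152 for *Fhod3*.

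*Ablim1* had more peaks than any other of the 7 genes, over a gene body of 282 kb with 5 curated starts (chr19:57032733-57314919, minus strand). Of its 36 peaks, 3 were lower, 1 was higher and 32 stayed inside the limit. The peaks over the 5 starts had differences of 0.10, -0.14, 0.40, -0.25 and -0.01 from the 5′-most start on. The second of these lies closest to the start of *4930449E18Rik* and is not among the 103. At the 5′-most start, the peak (chr19:57311880-57316497) had 676 reads in control and 724 in *Arid1a cKO*, and 146 and 157 reads per kb, close to the density of the *Fhod3* start peak in control.

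Around the *Ablim1* start at chr19:57197631, all 5 assigned peaks had negative differences, from -0.04 to -0.95 with a median of -0.28. The strongest *Ablim1* peak (chr19:57192793-57213977, 21185 bp) was one of these, with 2006 reads in control and 1687 in *Arid1a cKO* (-0.25), and so was the lowest (chr19:57169182-57171647), with 41.4 and 21.4 reads (-0.95). The other lower peaks lay 25.2 and 6.71 kb after the start at chr19:57119024, with 14.1 and 29.2 reads in control and 7.57 and 17.5 in *Arid1a cKO* (-0.90 and -0.74). The higher peak, 23.0 kb after that start, had 7.84 and 11.9 reads (0.60). The peaks assigned to the start at chr19:57274668 also had negative differences, with a median of -0.53, inside the 1.5-fold limit. Summed over all 36 peaks, reads in *Arid1a cKO* were 91.3% of control.

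The sequence features searched were shared with other peaks. In the central 1000 bp, a MEF2 core lay in 3 of the 103 peaks (2.91%) and in 4.20% of all peaks, and in 0 of the 25 lower peaks. Over whole peaks, 17 of the 103 held 24 matches, 0.0565 per kb against 0.0334 per kb over all peaks (7.56% of all peaks held any), and the median width was 2459 bp for member peaks and 1781 bp for all peaks. Of the 25 lower peaks, 6 (24%) held a match, 0.0883 per kb, and of the other 78 members 11 (14.1%), 0.0464 per kb. By gene the density was 0.143 per kb in *Tmod1*, 0.127 in *Lmod2*, 0.0657 in *Daam1*, 0.0510 in *Fhod3* and 0.0323 in *Ablim1*. *Fhod3* peaks held 5 matches, 1 in the start peak, 3 in the peak at 103 kb and 1 in the widest peak. A match to these letters is not shown to be a bound site.

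For the SRF box, which lies before many genes of the actin cytoskeleton, the central share was 6.80% of the 103 and 5.19% of all peaks. The ESRR core AAGGTCA lay in 19.4% and 20.6%, the TEAD core CATTCC in 48.5% and 45.0%, and the ZEB core CAGGTG in 51.5% and 49.1%, each searched on both strands. Over whole peaks, the SRF box had 0.0294 matches per kb in the 25 lower peaks and 0.0495 in the other 78 members. These densities were 0.186 and 0.260 for ESRR, 0.638 and 0.672 for TEAD, and 0.785 and 0.904 for ZEB. Only the MEF2 core was thus denser over whole peaks in the lower peaks than in the other members, from 9 and 15 matches. In the central 1000 bp it lay in 0 of the 25 lower peaks and in 3 of the other 78. In 250-base windows before starts, 0.508% of 32851 promoters held a MEF2 core and 12.6% a TEAD core. The *Tmod1* window held a TEAD core, and the *Lmod2*, *Fhod1*, *Daam1* and *Daam2* windows held none of the 5 motifs. Of the 5 *Ablim1* windows, 1 held a TEAD core and another a ZEB core.

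The other genes of the pathway were taken as lists and compared by counts. Of 27 peaks of the other formins, 2 were lower (7.41%, against 17.3% of all peaks) and 3 were higher (11.1%, against 12.0%), with a median of 0.19, on the opposite side of 0 from *Fhod3*. In that list *Diaph2* had the lowest median (-0.51, 3 peaks) and a start peak at -0.12, and *Fmnl2* the highest (0.435, 4 peaks) with a start peak at -0.21. *Fmn2* and *Grid2ip* had no peak nearest to them.

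Relatives of the pointed-end genes had peaks in both directions. Of 37 peaks of the other tropomodulin, leiomodin and ABLIM genes, 10 were lower (27%), 5 were higher (13.5%), and the median was -0.08. *Tmod2*, a paralog of *Tmod1* known from neurons, had 2 weak peaks that were both higher (1.18 and 1.64), with 5.86 and 13.3 reads at its start. The median of *Tmod1*, -0.47, was on the other side of 0.

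Of 60 peaks of genes for actin monomer supply and turnover, 16 were lower (26.7%) and 3 were higher (5.0%), with a median of -0.15. *Wdr1*, a cofactor of cofilin in filament disassembly, had the lowest median (-0.97, 4 of 6 peaks lower) and a start peak of 680 and 564 reads (-0.27), and *Twf2* the highest (0.21, 3 peaks, start peak 0.21). The *Twf2* peak with the most reads was nevertheless at -1.55, and its summed reads in *Arid1a cKO* were 50.8% of control. Capping, nebulin family and thin filament end genes had 12 of 49 peaks lower (24.5%) and 4 higher (8.16%), with a median of -0.21. *Svil*, an actin-binding membrane protein gene, had 8 of 20 lower (median -0.435, peak nearest the start -0.75), and *Xirp2* had a median of 0.69 over 2 peaks and -0.14 at the start. Genes of actin-SRF signalling had 8 of 43 lower (18.6%, near the 17.3% of all peaks) and 3 higher (6.98%), with a median of -0.12. Within that list *Rock2* had the lowest median (-0.30, start peak -0.13) and *Mrtfa* the highest (0.27, start peak 0.45). No peak had *Actc1* or *Acta1*, the sarcomeric actins, as its nearest start.

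Marker lists of cell types gave the following values. Of 61 peaks of 10 cardiomyocyte markers, 11 were lower (18%, near the 17.3% of all peaks) and 4 higher (6.56%), with a median of -0.18, and their summed reads were 23352 in control and 20934 in *Arid1a cKO*. *Myl3* had the lowest median (-0.83, start peak -0.42) and *Myl2* the highest (1.22, start peak -0.15), each over 2 peaks. The *Myl2* start peak had 2798 reads in control, whereas its other peak, at 2.59, had 13.0. Summed *Myl2* reads in *Arid1a cKO* were 92.5% of control. Of 37 fibroblast marker peaks, 2 were lower (5.41%) and 11 higher (29.7%), with a median of 0.38 and summed reads of 3259 and 4383, and the medians of *Dcn* and *Pdgfra* were 0.27 and 0.54 with start peaks at 0.46 and 0.35. Of 63 endothelial marker peaks, 2 were lower (3.17%) and 10 higher (15.9%; median 0.14, sums 11994 and 12388), from *Pecam1* (-0.01, nearest peak -0.01) to *Flt1* (0.345, start peak 0.23).

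The 5 peaks of macrophage and leukocyte markers had 0 lower and 1 higher (20%), against 17.3% and 12.0% of all peaks. Their median was 0.19 and their sums were 135 and 187, with *Csf1r* at 0.25 and its start peak at 0.43. *Fcgr1* and *Adgre1* had no peak nearest to them. The 20 smooth muscle and pericyte marker peaks had 1 lower (5.0%) and 3 higher (15.0%, near the 12.0% of all peaks), with a median of 0.165. Their sums were 2389 and 2841, and medians by gene ran from *Myh11* (-0.085, nearest peak 0.29) to *Acta2* (0.89, start peak 0.89). The part of these marker values in the differences of the 7 genes was not tested.

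**Figure D5:**
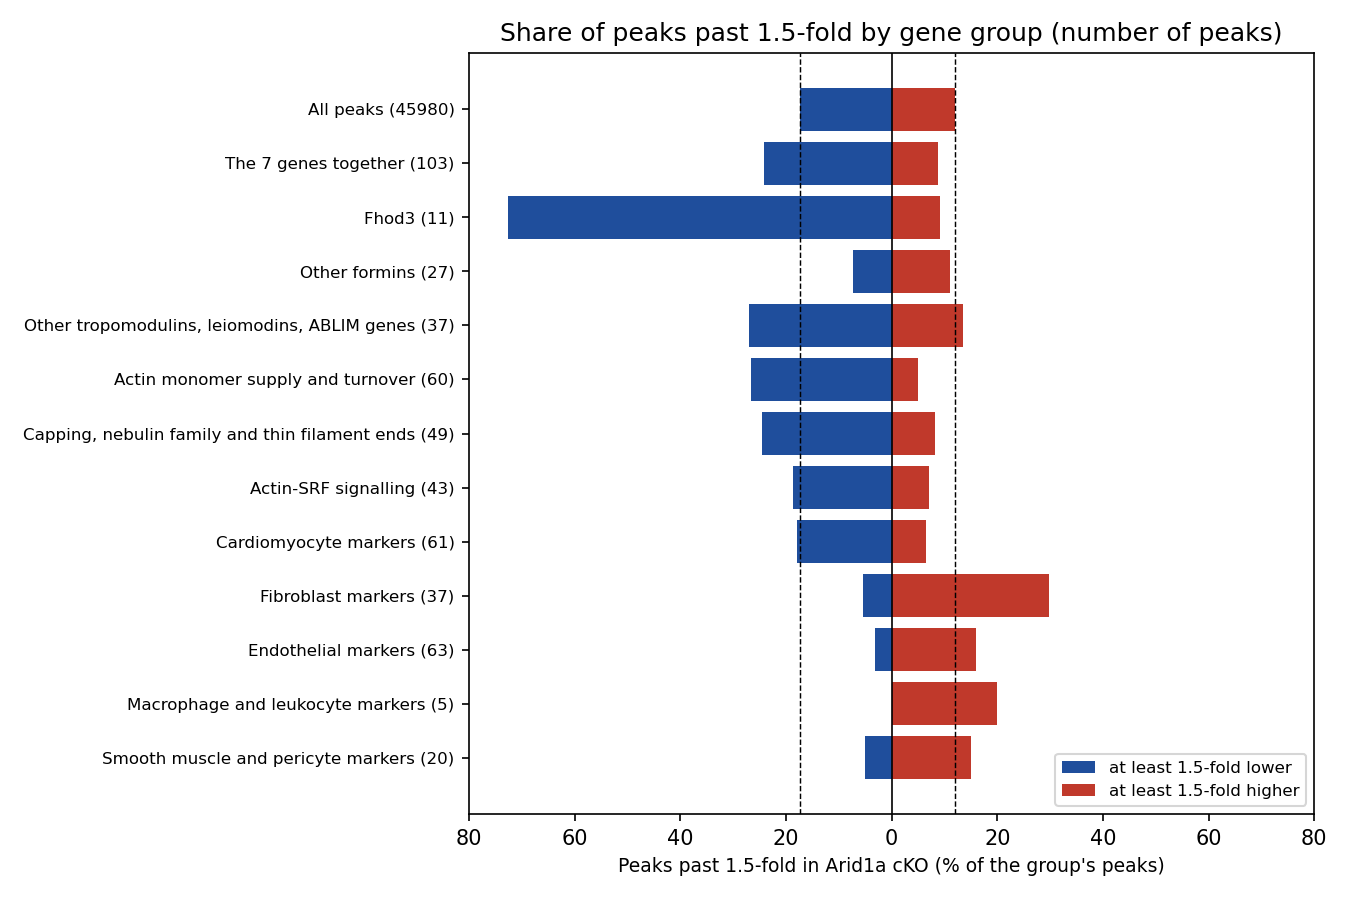
Share of peaks at least 1.5-fold lower (blue, to the left) or higher (red, to the right) in Arid1a cKO, as a percentage of the peaks of each group, with the number of peaks in brackets. Dashed lines give the shares over all peaks, 17.3% and 12.0%. The *Fhod3* bar reaches 72.7% lower, and the fibroblast markers reach 29.7% higher.

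Among 1200 genes with at least 8 peaks, *Fhod3* ranked 26 by the share of lower peaks and 53 by the median from the lowest up. The genes with the pattern most like it, by the sum of the differences in median and share of lower peaks, were *Kat6b* (10 of 14 lower, median -0.795), *Jade1* (8 of 11, -0.76), *Mir5709* and *Plxna4os1* (both 12 of 18, -0.82) and *1700036G14Rik* (6 of 9, -0.81). *Lmod2* ranked 73 and *Tmod1* 131 by that share.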

How the data were processed

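H3K27Ac ChIP-Seq of P7 ventricles was analysed for 2 Arid1a f/f Control and 2 *Arid1a cKO* hearts, grouped by the genotype and antibody of the labels. Per the labels and the methods of the study, the authors aligned to mm10 using BWA (0.7.17-r1188), called broad peaks with HOMER against the merged inputs, kept those found in more than 1 sample, and used DiffBind (2.12.0) with DESeq2 (1.24.0) to compare genotypes. The deposited values are, per the file headers, the log2 of mean normalized reads over all samples and in each group. How the libraries were scaled and whether input reads were subtracted is not given in the sources used here. The 3 deposited columns of the authors' own comparison (fold, p-value and FDR) were not used.

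The difference of the group means was taken for each peak, and reads are 2 to the power of the deposited level. Because only group means were deposited, no test, error or depth could be given. Peaks were assigned by their centre to the nearest start of 45756 curated transcripts (GRCm38.p6, the assembly of mm10, 21 chromosomes checked), and 7 peaks on sequences without such a start were left out. Group means at or under 3 reads were taken as a floor. Motifs were matched on both strands, namely the MEF2 core, the SRF box, the ESRR core AAGGTCA, the TEAD core CATTCC and the ZEB core CAGGTG, in whole peaks and in the central 1000 bp. The members and lists were chosen with earlier results of these data known.

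Peaks named in full are, for each of the 7 genes, that nearest to a start, the strongest in control, the lowest and highest difference and every one past 1.5-fold. From each list, the genes with the lowest and highest median among those with at least 2 peaks are named (1 such gene is not reported here), and the 5 genes most like *Fhod3* among those with at least 8 peaks. *Fmn2*, *Grid2ip*, *Fcgr1*, *Adgre1*, *Actc1* and *Acta1* are named for having no peak. Alternatives covered the fold limit, centring, the concentration, the assignment, weighting by width and a pseudocount of 5 reads. Steps were tested on simulated peaks. Python 3.11.15, numpy 2.4.6, pandas 2.3.3, pysam 0.24.0, samtools 1.23.1 and matplotlib 3.10.9 were used.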

Additional observations from a re-analysis of the deposited data

How the results depend on the processing

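Of 60 values recomputed under an alternative, 37 stayed within the limit set for them (1.5 times for a count, 0.1 on the log2 scale for a median), 22 moved and 1, a median past the 1.5-fold limit, changed sign. The *Fhod1* median, 0.09 over 2 peaks, also changed sign in 2 of the 22. At a limit of 2-fold, 6 of the 103 peaks were lower and 2 were higher, against 10.6% and 4.57% of all peaks, and 4 *Fhod3* peaks were lower. With peaks above the median concentration only, these counts were 12, 0 and 5. Fewer peaks can be counted in both cases by construction. Over peaks that overlap the gene body with 10 kb upstream, the *Lmod2* median turned to 0.195, and the medians were -0.66 for *Fhod3*, 0.34 for *Fhod1*, 0.22 for *Daam2* and -0.66 for *Tmod1*, over a different set of peaks (4 for *Lmod2* and 7 for *Tmod1* in place of 9 each). With predicted transcripts added, they were -0.16 for *Fhod1*, -0.42 for *Lmod2* and -0.095 for *Tmod1*. Means weighted by peak width were -0.66 for *Fhod3*, 0.20 for *Daam2* and -0.13 for *Ablim1*. With 5 reads added to each mean, the *Daam2* median was 0.23. The log2 ratio of summed reads, chosen after seeing the data, was -0.55 for *Fhod3*, -0.079 for *Fhod1*, -0.12 for *Daam1*, 0.18 for *Daam2* and -0.13 for *Ablim1*. No paired analysis was possible because the deposited columns are group means that carry no replicate. Leaving out a replicate could not be run for the same reason, so whether 1 heart decides a value is unknown, and differences of weak peaks are the least certain.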

Other observations

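Some peaks beside the 7 genes, chosen after their values were seen, had larger differences than most of the 103. On chromosome 8, downstream of the 3′ end of *Fhod1*, the peaks nearest to *Mir328* (chr8:105312271-105314074) and *Lrrc29* (chr8:105317408-105318785) had 31.8 and 38.1 reads in control and 1.42 in *Arid1a cKO* in both cases, which is under the floor of 3 reads, whereas the next peak, nearest to *Tmem208*, had 171 and 174 (0.02). On chromosome 17, upstream of *Daam2*, the next 3 peaks, all nearest to *Kif6*, were higher, with 7.21, 13.5 and 18.6 reads in control and 20.4, 75.1 and 59.7 in *Arid1a cKO* (1.5, 2.48 and 1.68). The *Daam2* peaks themselves lay between -0.09 and 0.39. On chromosome 4, just past the 3′ end of *Tmod1*, a peak nearest to *Tstd2* had 12.6 reads in control and 1.89 in *Arid1a cKO*. That value is also under the floor of 3 reads.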
